A study of Mus musculus with 9 samples.

Results

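The classical MHC class I molecules and the machinery that loads them with peptide were followed through 9 genes: H2-K1, H2-D1, B2m, Tap1, Tap2, Tapbp, Tapbpl, Nlrc5 and Erap1. They were chosen by name, as the genes of the count table whose identifiers carry these symbols, and make up 9 of its 55359 genes. All 9 were found once and all 9 passed the filter on low counts, as did 17123 genes in all. C57BL/6 mice aged 7 to 10 weeks had been given 500000 B16-OVA cells, a mouse melanoma line that carries chicken ovalbumin, into the peritoneal cavity, and every group carried this tumour. On day 6 they received saline (PBS group, route not given in the labels), or ovalbumin-specific OT-I T cells electroporated with IL-12 mRNA into the peritoneal cavity (IP group) or into a vein (IV group). Poly(A) RNA of the whole omentum, the abdominal fat fold in which the tumour cells settle, was sequenced 18 h later from 3 mice a group. No group received T cells without the IL-12 mRNA, so the cells and the mRNA cannot be told apart.

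Class I molecules sit on nearly all nucleated cells and show them, as short peptides, a sample of the proteins being made inside. A heavy chain, here the products of H2-K1 and H2-D1, pairs with the invariant light chain beta-2 microglobulin (B2m). Proteasomes cut the peptides, the TAP1 and TAP2 transporter pumps them into the endoplasmic reticulum, ERAP1 trims them, and tapasin (Tapbp) and the tapasin-related TAPBPR (Tapbpl) select those that bind well. NLRC5 is the transactivator of the class I promoters, and interferon-gamma is a known inducer of the whole set. In C57BL/6 mice the H2-K1 product is the molecule that shows the ovalbumin peptide to OT-I T cells, and B16 cells are known for low class I levels that interferon can raise.

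The promoters of the heavy chains and of the light chain are shown because they carry the binding motifs through which the pathway is known to be switched. RefSeq promoter sequences on GRCm38.p6 were held for 6 of the 9 genes, and Tap2, Tapbpl and Nlrc5 were not among them. Sequences run 5′ to 3′ on the strand of the gene, and positions are counted backwards from its start. Capitals mark matches to the motifs searched. The H2-K1 stretch covers the 130 bases before the start (chr17:34000348-34000477, minus strand), and its capitals are a kappa B match, a site alpha match and a Y box match, in this order.
H2-K1: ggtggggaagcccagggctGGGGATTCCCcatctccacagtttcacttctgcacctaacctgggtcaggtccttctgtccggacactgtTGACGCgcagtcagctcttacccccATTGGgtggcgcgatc
The B2m stretch runs from 150 to 2 bases before the start (chr2:122147537-122147685, plus strand), and its capitals are an interferon-stimulated response element match and a Y box match.
B2m: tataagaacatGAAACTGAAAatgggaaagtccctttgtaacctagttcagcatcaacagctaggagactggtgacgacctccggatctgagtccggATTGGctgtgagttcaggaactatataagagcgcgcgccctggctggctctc

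Both heavy-chain genes held the kappa B, site alpha and Y box matches in the same order and at the same spacing. In each gene 70 bases separated the first base of the kappa B match from that of the site alpha match, and 25 bases separated site alpha from the Y box. The first pair of windows, 30 bases each, shows the kappa B match (capitals) at chr17:34000439-34000468 on the minus strand for H2-K1 and at chr17:35262913-35262942 on the plus strand for H2-D1.
H2-K1: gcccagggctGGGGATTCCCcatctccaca
H2-D1: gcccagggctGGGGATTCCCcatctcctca
These windows were identical at 29 of 30 bases (96.7%). The second pair runs from the site alpha match to the Y box match (both in capitals), at chr17:34000359-34000388 (minus strand) and chr17:35262993-35263022 (plus strand).
H2-K1: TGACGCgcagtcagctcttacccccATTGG
H2-D1: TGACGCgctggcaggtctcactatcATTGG
Here 23 of 30 bases (76.7%) were the same. The block from the first base of the kappa B window to the last base of the Y box match has 110 bases. In it 99 bases (90%) were the same. The H2-K1 windows lie before the annotated exons, while the H2-D1 windows lie inside an exon of an alternative transcript in the GENCODE M21 annotation.

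Motifs were searched as plain letters on both strands of the 250 bases before each gene start, also in all 32851 mouse promoters of the table, and no match in the 6 overlapped another. H2-K1 has 2 entries, of which the one that starts further upstream is shown. The kappa B motif, searched as GGG, 2 bases of any kind and TTCCC, was in 1.53% of all promoters and in 2 of the 6 (H2-K1 and H2-D1). Site alpha, the binding site of CREB and ATF factors, was searched as TGACGC and was in 6.12% of all promoters and in the same 2 of the 6. The Y box CCAAT, bound by the NF-Y complex, was in 33.8% of all promoters and in 5 of the 6, Erap1 being the one without it. An interferon-stimulated response element, searched as GAAA, 2 bases of any kind and GAAA again, was in 2.98% of all promoters and in 1 of the 6, B2m, at 139 to 130 bases before its start. The gamma-activated site TTCNNNGAA was in 7.02% of all promoters and in 0 of the 6. For every motif searched, a missing match says only that these exact letters are not in the window. Sites that differ from the letters by a base or in spacing were not searched, so a gene without a match may still hold such a site. For H2-D1, Tap1, Tapbp and Erap1 all 250 bases lie inside exons annotated in GENCODE M21. These are exons of the gene itself and, for Tap1 and Tapbp, also of other genes. Such a window may therefore lie after the start of another transcript, and sequence further upstream was not searched. H2-K1, H2-D1, Tap1, Tap2 and Tapbp lie on chromosome 17, B2m on 2, Tapbpl on 6, Nlrc5 on 8 and Erap1 on 13. Tap1 lies between Psmb9 and Psmb8, and Tap1 and Psmb9 start 226 bases apart and run in opposite directions, and the Tap1 window overlaps exon bases of Psmb9, an immunoproteasome gene.

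**Figure D1:**
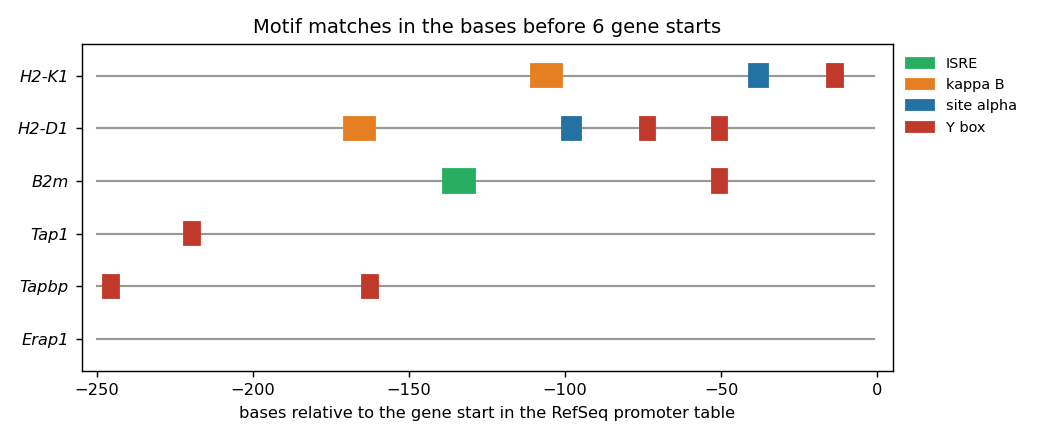
Motif matches (coloured boxes) in the 250 bases before the starts of the 6 genes with a RefSeq promoter, plotted by distance from the start in bases. H2-K1 and H2-D1 show the kappa B, site alpha and Y box series at the same spacing. B2m shows a match to the response element letters and a Y box, and Erap1 shows no match to the letters searched.

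Library totals ran from 7379798 counts (IV 2) to 44626843 (PBS 3). Levels are given as CPM, the count relative to the library total, scaled by TMM, a factor that balances the libraries' composition. Libraries are named by group and mouse number. Across the 17123 genes tested, which are not independent replicates and share depth and composition, the log2 CPM of IV 4 correlated most with PBS 3 (r = 0.985), against 0.9611 with IV 1 and 0.9684 with IV 2. IV 4 therefore stands apart from its group, and values without it are given where a result rests on it. Pancreatic acinar markers summed to 13.1 to 19.6 CPM in the PBS libraries, 144 to 14300 in IP and 9.34 to 17800 in IV, and Amy2a1 (6 libraries) and Cpa1 (PBS 3) were listed at 0. Of these 7 markers edgeR called 0 in any comparison, with 4 higher in IP and 7 in IV at an unadjusted p under 0.05, while DESeq2 called 6 higher in IP and 6 in IV and voom called 0. In 6 of the 7 every IP library was above every PBS library, and in 0 of the 7 every IV library. In these bulk samples, fewer cells of a type and less RNA per cell cannot be told apart, and transcripts of host and tumour cells are counted together.

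In the omenta of mice given the T cells by either route, transcripts of all 9 genes were higher than after saline, by 2.97-fold (Erap1) to 7.7-fold (Tap2) after IP delivery and by 2.52-fold (Erap1) to 5.12-fold (Tapbpl) after IV delivery. All 9 passed the test in IP against PBS, where 18.7% of the 17123 genes tested were called higher. All 9 also passed in IV against PBS, where 10.4% were called higher. Both comparisons use the same PBS libraries. No library of a treated group was as low as the highest PBS library in any of the 9 genes, a separation shown upwards by 28.4% of all genes for IP and 16.5% for IV. The median log2 fold change of the 9 was 2.32 for IP and 2.08 for IV, beside 0.02 and 0.04 over all genes tested.

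**Figure D2:**
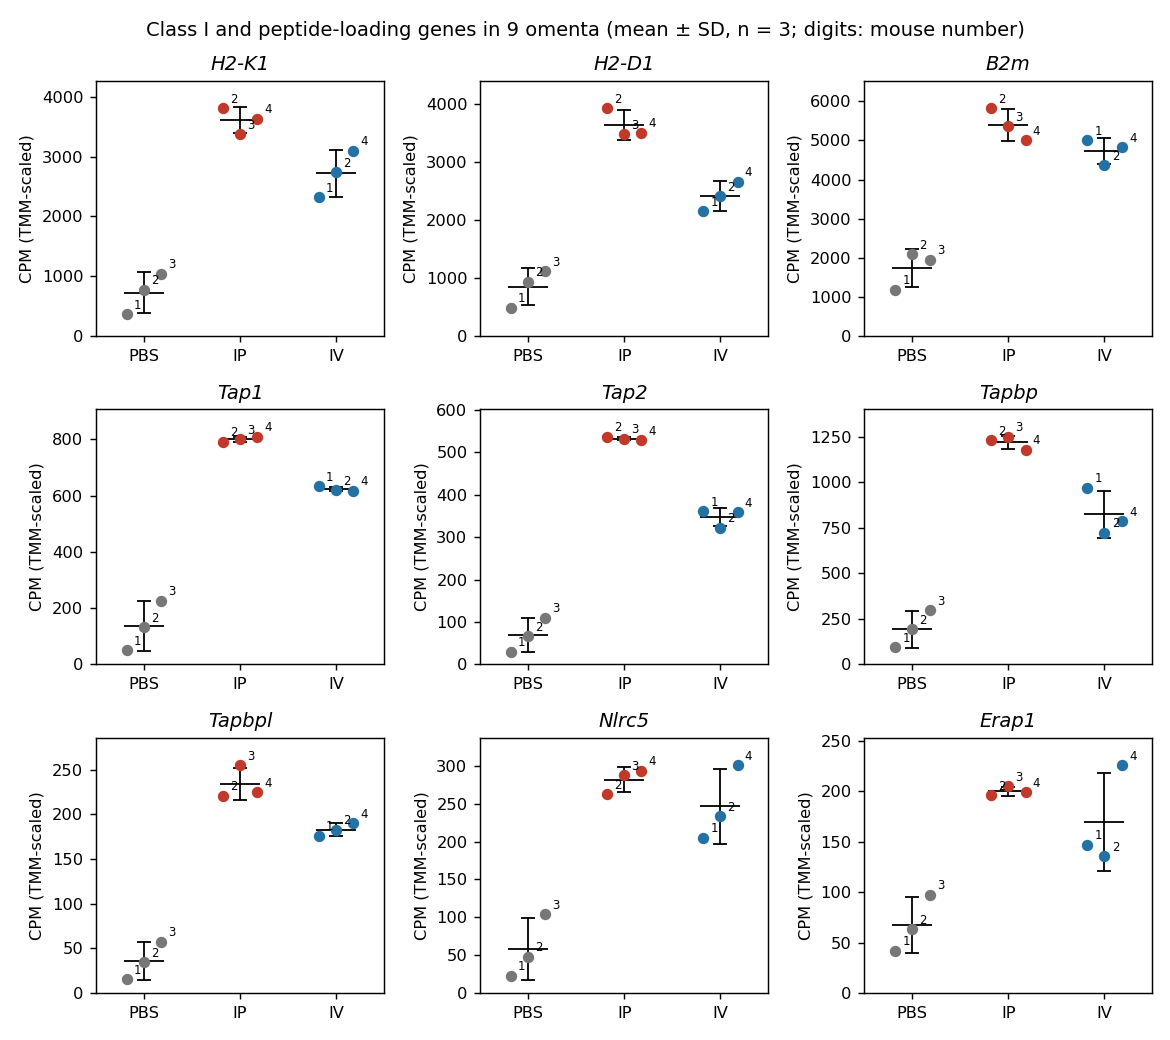
TMM-scaled CPM of the 9 genes in each library (points, with mouse numbers), with the mean and SD of the 3 libraries of a group. The 3 PBS points lie below all treated points in every panel, and IV 4 is the highest of all libraries for Nlrc5 and Erap1.

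The heavy chains responded alike in order of libraries. H2-K1, the heavy chain of the ovalbumin-presenting molecule, was at 361, 772 and 1040 CPM in PBS 1, 2 and 3, at 3810, 3380 and 3640 CPM in IP 2, 3 and 4, and at 2320, 2740 and 3100 CPM in IV 1, 2 and 4. The groups did not overlap, and PBS 1 was the lowest of the 9 libraries, as it was in all 9 genes. Group means were 725 ± 343, 3610 ± 217 and 2720 ± 388 CPM (SD, n = 3), so that the fitted log2 fold change against PBS was 2.32 ± 0.31 for IP (with its SE; edgeR adjusted p = 0.000284) and 1.91 ± 0.31 for IV (adjusted p = 0.00388). H2-D1, the other classical heavy chain of this strain, was at 490, 936 and 1120 CPM in PBS, 3920, 3470 and 3500 CPM in IP and 2150, 2410 and 2660 CPM in IV, each in order of mouse number. Its libraries fell in the same order as those of H2-K1 from the lowest to the highest. The log2 fold change of H2-D1 was 2.10 ± 0.26 for IP (edgeR adjusted p = 0.000158) and 1.51 ± 0.25 for IV (adjusted p = 0.00442).

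Reads of the heavy chains can be shared with near-identical class I genes, so their values carry that uncertainty. Of the 51-base words in the H2-K1 exons, 51 bases being the length of 1 read, 6.41% occur in another gene, and 5.06% occur in H2-D1. For H2-D1 the share was 13.3%, of which H2-Q1, a neighbouring non-classical class I gene, holds the most (6.55%). In B2m, Nlrc5 and Erap1 the share was 0%, in Tap1 0.801%, in Tap2 0.68%, in Tapbp 3.4% and in Tapbpl 3.39%.

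B2m, the light chain on which every class I molecule depends, had the highest level of the 9 genes per kilobase of exon and, after Erap1, the smallest change. It was at 1180, 2090 and 1950 CPM in PBS, 5820, 5360 and 5010 CPM in IP and 5010, 4360 and 4820 CPM in IV. IP 4 lay above IV 1 by less than the rounding shows, so IP and IV were separated by a very small margin. Means of 1740 ± 487 (PBS), 5400 ± 405 (IP) and 4730 ± 338 CPM (IV; SD, n = 3) gave log2 fold changes of 1.63 ± 0.20 (edgeR adjusted p = 0.000151) and 1.44 ± 0.20 (adjusted p = 0.00235). B2m is the only member in which PBS 2, and not PBS 3, was the highest saline library.

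Both subunits of the peptide transporter rose in both comparisons with PBS. Tap1 was at 49.8, 133 and 227 CPM in PBS, 791, 800 and 809 CPM in IP and 633, 620 and 618 CPM in IV. The treated libraries were tightly grouped, with SDs of 8.82 CPM in IP and 7.97 CPM in IV around means of 800 and 623, while the PBS mean was 137 ± 88.9 CPM. Log2 fold changes of Tap1 were 2.55 ± 0.41 (edgeR adjusted p = 0.000863) and 2.19 ± 0.41 (adjusted p = 0.00671). Tap2 was at 30.2, 66.9 and 110 CPM in PBS, 536, 532 and 528 CPM in IP and 361, 322 and 358 CPM in IV. It had the largest log2 fold change of the 9 genes in IP, 2.94 ± 0.36 (edgeR adjusted p = 0.000168), and 2.33 ± 0.36 (adjusted p = 0.00314) in IV. The 3 IP libraries of Tap2 lay within 8 CPM of each other, while PBS 3 was several times PBS 1.

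Both editors of the peptide cargo rose with the transporter. Tapbp, whose product tapasin bridges the transporter and the empty class I molecule, was at 94.2, 192 and 297 CPM in PBS, 1230, 1250 and 1180 CPM in IP and 971, 723 and 785 CPM in IV. Its log2 fold changes were 2.65 ± 0.34 (edgeR adjusted p = 0.000195) and 2.09 ± 0.33 (adjusted p = 0.00356). Tapbpl, whose product edits peptides without binding the transporter, was at 15.6, 34.4 and 57.3 CPM in PBS, 221, 255 and 225 CPM in IP and 176, 183 and 190 CPM in IV. No group overlapped another for either gene. Tapbpl rose by 2.71 ± 0.36 on the log2 scale in IP (edgeR adjusted p = 0.000264) and by 2.36 ± 0.36 in IV (adjusted p = 0.00312), the largest IV value of the 9.

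Nlrc5 and Erap1 were the members in which IV 4 stood out. Nlrc5, the transactivator, was at 22.7, 47.8 and 104 CPM in PBS, 263, 288 and 294 CPM in IP and 205, 234 and 301 CPM in IV. IV 4 was the highest of the 9 libraries, so IP and IV overlapped. The log2 fold changes of Nlrc5 were 2.28 ± 0.43 (edgeR adjusted p = 0.00233) and 2.08 ± 0.43 (adjusted p = 0.0107). Erap1, the trimming peptidase of the endoplasmic reticulum, was at 41.7, 63.2 and 97.3 CPM in PBS, 196, 205 and 199 CPM in IP and 147, 136 and 226 CPM in IV. IV 4 was again the highest library, and the SD in IV (48.8 CPM) was about as large as the gap between the IV 1 and IP values. Erap1 had the smallest change of the 9, 1.57 ± 0.28 in IP (edgeR adjusted p = 0.00168) and 1.33 ± 0.28 in IV (adjusted p = 0.0119). Without PBS 2 the IV values of Nlrc5 (1.91, edgeR adjusted p = 0.0705) and Erap1 (1.24, adjusted p = 0.0594) no longer passed, leaving 7 of 9, against 5.81% of all genes. Without PBS 3, the highest saline library, the Nlrc5 values were 3.00 in IP and 2.80 in IV.

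IV 4 was above the PBS range for all 9 genes although its profile over all genes was nearest to PBS 3. Against PBS 3, IV 4 was 2.32-fold (Erap1) to 3.32-fold (Tapbpl) higher in the 9 genes, with 2.97-fold for H2-K1 and 2.48-fold for B2m, where the median over all genes was 1.01-fold. With IV 4 left out, all 9 genes still passed in IV against PBS (13.2% of all genes were then called higher), from 1.06 on the log2 scale for Erap1 (edgeR adjusted p = 0.0246) to 2.32 for Tapbpl (adjusted p = 0.012), with Nlrc5 at 1.91 (adjusted p = 0.0468).

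**Figure D3:**
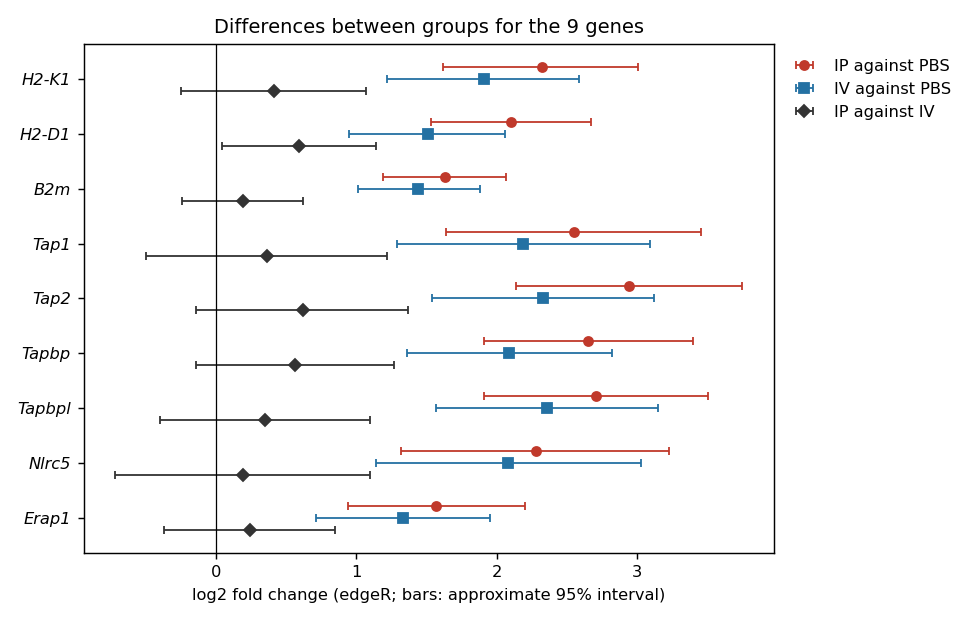
Log2 fold changes of the 9 genes for IP against PBS, IV against PBS and IP against IV, from edgeR, with approximate 95% intervals as bars. Every interval against PBS lies above 0, and for IP against IV the interval of H2-D1 alone does not cross 0.

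The routes were compared by setting IP directly against IV, and since both share the PBS libraries this contrast equally tests how far the responses differ. Fold changes favoured IP in all 9 genes, from 0.19 on the log2 scale (B2m and Nlrc5) to 0.62 (Tap2), with a median of 0.36 beside -0.02 over all genes. None of the 9 passed the edgeR test after adjustment, while 5.93% of all genes were called higher in IP. At an unadjusted p under 0.05 there was 1 (H2-D1). DESeq2 (9.22% of genes called higher) and limma voom (6.72%) also called 0 of the 9. In 7 of the 9 every IP library was above every IV library, a separation shown by 17.9% of all genes, with Nlrc5 and Erap1 as the exceptions. Both exceptions overlapped through IV 4 alone. Without IV 4, Nlrc5 was at 0.37 (edgeR adjusted p = 0.697) and Erap1 at 0.50 (adjusted p = 0.26). H2-D1 came nearest to the threshold, at 0.59 ± 0.25 (SE; approximate 95% interval 0.04 to 1.14; edgeR adjusted p = 0.163). For H2-K1 the interval ran from -0.25 to 1.07 around 0.41, for Tap2 from -0.14 to 1.37 around 0.62, and for B2m from -0.24 to 0.62 around 0.19, so the intervals allow both no difference and one of more than the fitted size. A fit of the IP and IV libraries alone called 3 of the 9 higher in IP, against 6.34% of all genes: H2-D1 (0.57, edgeR adjusted p = 0.0183), Tap2 (0.60, adjusted p = 0.0172) and Tapbp (0.55, adjusted p = 0.0391). Without PBS 1 the fit of all groups called 1 (H2-D1 0.59, edgeR adjusted p = 0.0266), against 5.19% of all genes.

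Per kilobase of exon, a scale on which levels can be compared roughly between genes, the light chain stood well above the heavy chains and the loading genes far below them. Means in CPM per kilobase were 2020 ± 567 in PBS, 6280 ± 471 in IP and 5500 ± 393 in IV for B2m (SD, n = 3). H2-D1 had 329 ± 125, 1410 ± 98.3 and 934 ± 99.4, and H2-K1 had 247 ± 117, 1230 ± 73.8 and 925 ± 132, in the same order. In PBS and in IV the means of H2-D1 and H2-K1 differed by less than their SDs. Tapasin led the loading genes, with Tapbp at 53.6 ± 28, 337 ± 9.98 and 228 ± 35.5 CPM per kilobase. The transporter followed, Tap1 at 25 ± 16.2, 146 ± 1.61 and 114 ± 1.46 and Tap2 at 18.3 ± 10.6, 141 ± 1.04 and 91.8 ± 5.75, where the subunits lay within an SD of each other in PBS but not in IP or IV. Tapbpl was at 15.2 ± 8.89, 99.3 ± 7.84 and 77.9 ± 3.07. At the foot of the order, Nlrc5 was at 6.85 ± 4.9, 33.2 ± 1.91 and 29 ± 5.83 and Erap1 at 9.26 ± 3.85, 27.5 ± 0.643 and 23.3 ± 6.71, so that Erap1 was above Nlrc5 in PBS and below it in IP and IV, within an SD in PBS and IV. Exon lengths come from GENCODE M21 with all transcripts of a gene merged, so that gene order depends on that annotation. H2-K1 has 2938 merged bases but 2014 words of 51 bases in its coding transcripts, H2-D1 2579 and 2275, and Tap1 5476 and 2998. The SDs between mice do not include this uncertainty, and the order of genes with close values, such as H2-D1 and H2-K1, is not settled.

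Members were also set against B2m of the same library, since such a ratio does not depend on how libraries are scaled. Tap2 counts were 0.0255, 0.032 and 0.0565 of the B2m counts in PBS, 0.092, 0.0993 and 0.105 in IP and 0.0719, 0.0739 and 0.0744 in IV. The 3 groups did not overlap, and the log2 ratio was higher by 1.46 in IP and by 1.03 in IV than in PBS (exact two-sided permutation test, p = 0.1 for both, the smallest p that 3 against 3 libraries allow). The Erap1 ratio to B2m overlapped between all groups: it was 0.0352, 0.0302 and 0.05 in PBS, 0.0337, 0.0384 and 0.0397 in IP and 0.0292, 0.0313 and 0.0468 in IV, with log2 differences of -0.02 (exact permutation p = 1) and -0.10 (p = 0.6). H2-K1 was 0.305, 0.369 and 0.535 of B2m in PBS, 0.655, 0.632 and 0.726 in IP and 0.463, 0.629 and 0.642 in IV, so that IP lay above PBS while IV overlapped it. Of the 8 ratios, 6 did not overlap upwards between IP and PBS, as for 4.55% of all other genes tested. Between IV and PBS there were 4 (Tap1, Tap2, Tapbp and Tapbpl; 1.27% of all), and between IP and IV 3 (H2-D1, Tap2 and Tapbp; 9.53%). B2m itself rose, so that 80.1% of all other genes lay below PBS without overlap in IP and 73.4% in IV. The upward shares against PBS are small for this reason, and an upward ratio says that a member rose more than B2m. Over the 24 tests no adjusted p (Benjamini-Hochberg) was under 0.185, which the group size fixes in large part.

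The heavy chains themselves shifted in proportion. H2-D1 counts were 1.36, 1.21 and 1.07 times the H2-K1 counts in PBS 1, 2 and 3, 1.03, 1.03 and 0.96 times in IP, and 0.928, 0.88 and 0.861 times in IV. No group overlapped another: PBS was highest and IV lowest, with log2 differences of -0.27 (IP against PBS), -0.44 (IV against PBS) and 0.18 (IP against IV; exact permutation p = 0.1 for each, the smallest possible). This ratio was computed as the check of another denominator, and the shared words of the 2 genes apply to it. H2-K1 itself rose, and set against it 88.3% of all other genes lay below PBS without overlap in IP and 80.3% in IV. The lower H2-D1 ratios are therefore what most genes showed. Of the 7 members set against H2-K1, B2m left aside, 3 did not overlap upwards between IP and PBS (2.24% of all other genes), 2 between IV and PBS (0.718%) and 1 between IP and IV (4.87%). Tap2 was higher by 0.69 in IP and 0.49 in IV than in PBS, and Tapbpl by 0.45 and 0.52, without overlap (exact permutation p = 0.1 for each). Tapbp was higher by 0.36 in IP without overlap (p = 0.1), but overlapped in IV at 0.20 (exact permutation p = 0.6). Tap1 overlapped PBS in both, at 0.36 and 0.42 (exact permutation p = 0.2 for each), unlike its ratio to B2m. Between IP and IV, Tap2 (0.20) and Tapbp (0.16) overlapped on this denominator. Erap1, like most genes, was lower against H2-K1 without overlap, by a log2 difference of -0.79 in IP and -0.65 in IV (exact permutation p = 0.1 for each).

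**Figure D4:**
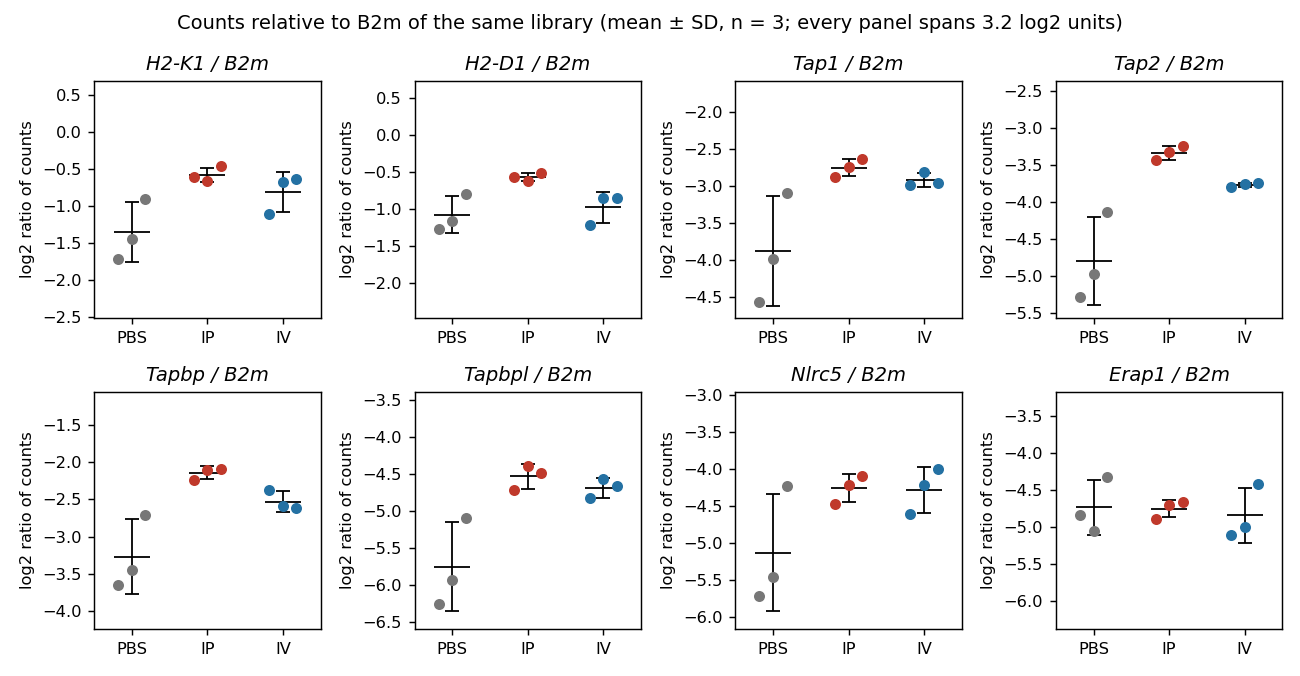
Log2 ratio of each member's counts to the B2m counts of the same library (points), with the mean and SD of the 3 libraries of a group; each panel spans the same number of log2 units. Tap2 shows 3 separate groups, and Erap1 shows none.

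Among themselves, the transporter and editor genes were the most alike over the 9 libraries. Likeness was measured as the root mean square difference of log2 CPM after each gene was centred on its own mean. It is given as a description. The candidates outside the 9 were 10958 genes with a symbol and a mean of at least 5 CPM. Genes with provisional names, pseudogenes, mitochondrial genes and immunoglobulin or T cell receptor genes were left out of them. Tap1 and Tapbpl, which lie on different chromosomes, differed by 0.11 log2 units, and no candidate was nearer to either. H2-K1 and H2-D1 were each other's nearest member at 0.20, with 9 and 12 candidates nearer. B2m and Erap1 had the smallest spread over the libraries (0.78 and 0.80 log2 units). They were each other's nearest member at 0.26, with 41 and 24 candidates nearer.

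Among these candidates, the genes nearest to H2-K1 included other class I genes. H2-M3, H2-Q4 and H2-T22, non-classical class I heavy chains, differed from H2-K1 by 0.15, 0.16 and 0.18 log2 units, while Clec12a, an inhibitory receptor of myeloid cells, differed by 0.17 and Plbd1 by 0.18. H2-K1 shares 0% of its words with H2-M3, 2.38% with H2-Q4 and 1.24% with H2-T22. Nearest to Tap1 were Irgm1 (0.12), an interferon-inducible GTPase, Gbp3 (0.19), a guanylate-binding protein gene, Klra2 (0.19), the adjacent Psmb8 (0.20) and Uba7 (0.20), the activating enzyme for ISG15. Nlrc5 had Irgm2 (0.15), Gbp7 (0.15), Uba7 (0.18), Klra2 (0.20) and Irgm1 (0.21). B2m had Rtp4 (0.17), Parp12 (0.17), Pla2g16 (0.18), Rbm43 (0.18) and Atp6v1c2 (0.18), and Erap1 had Trim21 (0.18), Ccr2 (0.18), Parp9 (0.19), Tmem229b (0.20) and Ifih1 (0.20).

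Upstream of the transporter, the inducible proteasome subunits all rose, while none of the general chaperones of class I folding passed the test. All 5 genes of peptide supply passed in IP against PBS and in IV against PBS, with a median of 2.29 in each, where 18.7% and 10.4% of all genes were called higher. Psmb9, a catalytic subunit of the immunoproteasome, was at 16, 73 and 82 CPM in PBS, 437, 421 and 417 CPM in IP and 388, 396 and 313 CPM in IV, a log2 fold change of 2.90 and 2.68 (with no filter on low counts its IV value was 2.63 with an edgeR adjusted p of 0.0556). Psmb8, the catalytic subunit on the other side of Tap1, rose by 2.64 and 2.29, Psmb10 by 2.29 and 2.35, and the PA28 activator subunits Psme1 by 2.14 and 1.99 and Psme2 by 2.11 and 2.00. Between IP and IV, 0 of the 5 passed by edgeR, DESeq2 or voom, and 0 at an unadjusted p under 0.05.

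None of the 6 assembly chaperones passed by edgeR in any comparison, with medians of 0.02 (IP against PBS), -0.02 (IV against PBS) and 0.04 (IP against IV). Calr, calreticulin, which holds the nearly complete class I molecule, was at 1470, 1660 and 1560 CPM in PBS, 1500, 1650 and 1690 CPM in IP and 1670, 1760 and 1450 CPM in IV, so the groups overlapped. Pdia3, the disulphide isomerase paired with tapasin, was 0.40 higher in IP (edgeR adjusted p = 0.0529) and 0.36 in IV (adjusted p = 0.116), and Canx, calnexin, which holds the free heavy chain, was at -0.28 (adjusted p = 0.119) and -0.39 (adjusted p = 0.0573). At an unadjusted p under 0.05 there was 1 higher in IP, 1 higher and 1 lower in IV, and none between IP and IV. DESeq2 called Pdia3 higher and Canx lower in IP, voom called Pdia3 higher in IP, and both called Canx lower in IV. Pdia3 passed in IP without PBS 2 (0.48, edgeR adjusted p = 0.0215) or IV 4 (0.40, adjusted p = 0.0308), and without IV 4 Pdia3 (0.44, adjusted p = 0.042) and Canx (-0.46, adjusted p = 0.0289) passed in IV.

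**Figure D5:**
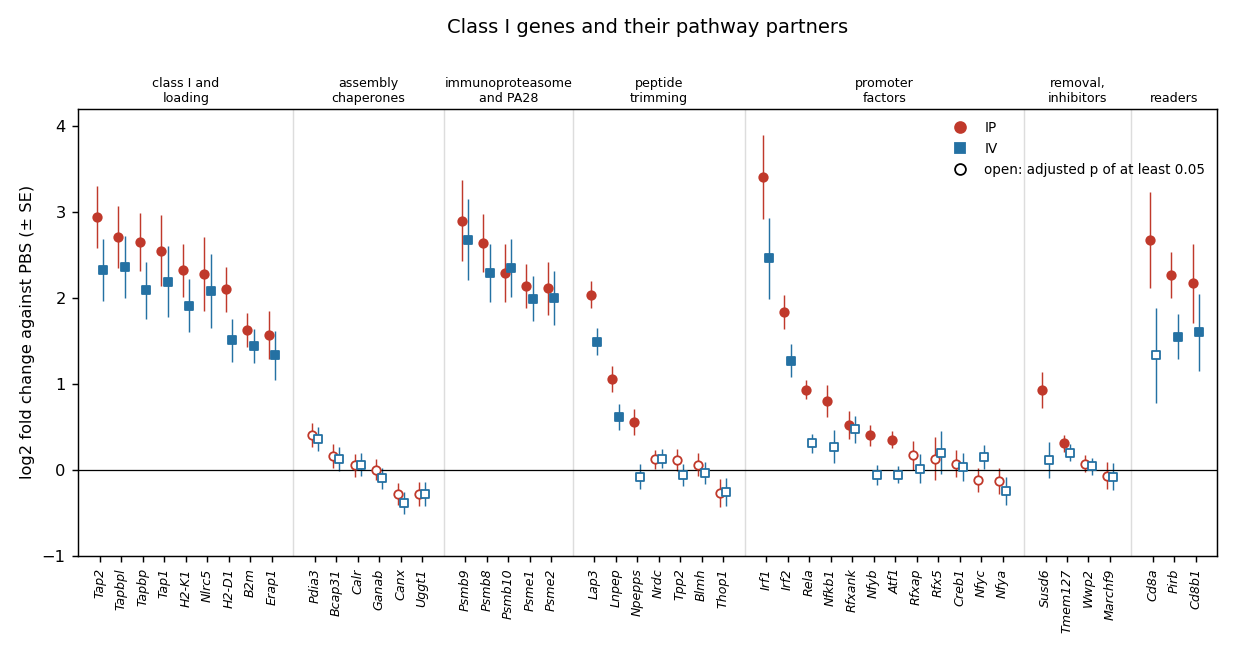
Log2 fold change against PBS, with SE, of the 9 genes and of partner genes grouped by role, for IP (circles) and IV (squares), filled where the edgeR adjusted p is under 0.05. The class I, proteasome and reader groups sit well above 0 and the chaperones around it.

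Peptidases that trim peptides outside the class I loading site were split. Lap3, leucine aminopeptidase, rose from 100, 142 and 133 CPM in PBS to 482, 547 and 508 CPM in IP (2.04, edgeR adjusted p = 2.4e-05) and 367, 366 and 316 CPM in IV (1.49). Lnpep, a peptidase of endosomes known from cross-presentation, rose by 1.06 in IP (edgeR adjusted p = 0.000393) and 0.61 in IV (adjusted p = 0.0207), and Npepps by 0.56 in IP (adjusted p = 0.0141). These were 3 of 7 in IP (18.7% of all genes) and 2 of 7 in IV (10.4%), and Tpp2 and Thop1 were among those not called. Between IP and IV, 2 of 7 were higher in IP (5.93% of all genes), Lap3 (0.55, edgeR adjusted p = 0.0455) and Npepps (0.64, adjusted p = 0.0207). With a library left out, that call was lost in 7 of 9 fits for Lap3 (adjusted p up to 0.169) and in 3 for Npepps (without IP 2, IP 3 or IV 2, up to 0.108). Against PBS, Lnpep lost its IV call without PBS 1, PBS 2 or IV 2 (0.45 to 0.63, edgeR adjusted p up to 0.0803) and Npepps its IP call without PBS 2 or IP 2 (0.46 and 0.50, up to 0.0731).

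Of the 13 factors known to act at class I promoters, 8 were higher in IP and 3 in IV than in PBS (18.7% and 10.4% of all genes). Irf1, the interferon-induced activator, was at 31.1, 125 and 178 CPM in PBS, 1220, 1170 and 1150 CPM in IP and 639, 610 and 588 CPM in IV. The 3 groups did not overlap, and the log2 fold change of Irf1 was 3.41 and 2.46 (its IV call was lost without PBS 2, at 2.49 with an edgeR adjusted p of 0.0523, and with no filter, at 2.40 and 0.079). Irf2, a factor of the same family, rose by 1.84 and 1.27. Rela (0.93) and Nfkb1 (0.80), subunits of the NF-kappa B factor that binds kappa B sites, rose in IP. With limma on the deposited log2 CPM, Nfkb1 lost that call (0.64, limma adjusted p = 0.0506) and Rela kept it (0.77, adjusted p = 0.00102). Rfxank (0.52), Nfyb (0.40) and Atf1 (0.35), named after their values were seen, were also called in IP, but lost their call in 5, 4 and 5 of the 9 fits with a library left out (adjusted p up to 0.0913, 0.135 and 0.0976). Rfx5, the subunit of the RFX complex with which NLRC5 works, was at 0.13 (edgeR adjusted p = 0.73) and 0.20 (adjusted p = 0.631). Between IP and IV, 3 of 13 were higher in IP, beside 5.93% of all genes: Rela (0.62, edgeR adjusted p = 0.00709), and, named after their values were seen, Atf1 (0.41, adjusted p = 0.0266) and Nfyb (0.45, adjusted p = 0.044). With a library left out, Rela kept its call in all 9 fits, while Atf1 lost it in 5 (adjusted p up to 0.139) and Nfyb in 7 (up to 0.185).

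Among the genes that take class I off the surface 2 of the 4 tested were higher in IP, and the 3 receptors that read it were higher there too. Susd6, which with Tmem127 and Wwp2 is known to send class I to degradation, rose by 0.93 in IP (edgeR adjusted p = 0.00617) and was 0.82 higher in IP than in IV (adjusted p = 0.0336), and Tmem127 rose by 0.31 in IP (adjusted p = 0.0327). With a library left out, the call of Tmem127 was lost in 6 of 9 fits (without each PBS and each IP library, adjusted p up to 0.137), and that of Susd6 in IP against IV in 5 of 9 (without each IP library, IV 1 or IV 2, up to 0.136). In IV 0 of the 4 passed by edgeR, DESeq2 or voom, and 0 at an unadjusted p under 0.05, while Marchf4 had at most 8 counts in a library and was not tested. The readers Cd8a (2.67) and Cd8b1 (2.17), the T cell co-receptor of class I, and Pirb (2.27), an inhibitory receptor of myeloid and B cells, all rose in IP. With no filter on low counts, Cd8a (2.59, edgeR adjusted p = 0.056) and Cd8b1 (2.09, adjusted p = 0.0657) lost that call, as did Cd8b1 in IV (1.55, adjusted p = 0.219). In IV, Cd8b1 (1.60, edgeR adjusted p = 0.0374) and Pirb (1.55, adjusted p = 0.00453) passed and Cd8a (1.33, adjusted p = 0.131) did not, and Cd8b1 kept its IV call in 2 of the 9 fits with a library left out (1.25 to 2.25, adjusted p up to 0.144). Without PBS 3 Cd8b1 was at 2.82 in IP and 2.25 in IV. Between IP and IV 0 of 3 passed by edgeR, with 2 at an unadjusted p under 0.05 and 0 by DESeq2 or voom. Over the 38 partners tested, 21 were called higher in IP, 12 in IV and 6 in IP against IV, beside 18.7%, 10.4% and 5.93% of all genes, and none was called lower by edgeR (unadjusted, 0, 1 and 0 were lower). Among all genes tested, 14.2%, 5.66% and 4.47% were called lower in these comparisons.

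Most lists of immune cell markers rose with the 9 genes by both routes, at least in part, while the B cell list rose in IV only. The part of these cells in the change was not tested. Against PBS, 18.7% of all genes were called higher and 14.2% lower in IP, and 10.4% and 5.66% in IV. Leukocyte markers (4 of 4 higher in IP and in IV) summed to 237 to 462 CPM in PBS, 997 to 1060 in IP and 597 to 982 in IV. T cell markers, which include Cd8a and Cd8b1 and are carried by the injected cells too, were higher for 5 of 6 in both, with sums of 24.2 to 71.6, 178 to 196 and 75.1 to 192 CPM. Macrophage and monocyte markers (4 of 5 higher in IP, 2 of 5 in IV) summed to 159 to 353, 740 to 804 and 472 to 524 CPM. Neutrophil markers (4 and 2 of 4 by edgeR) summed to 9.52 to 19.5, 105 to 162 and 25.2 to 166 CPM. By voom 2 of the 4 neutrophil markers were higher in IP and 1 in IV (19.5% and 9.22% of all genes). By DESeq2 these numbers were 4 and 3 (20% and 13% of all genes). Dendritic cell markers (2 and 3 of 5 higher) summed to 15.8 to 34.3, 59.7 to 75.3 and 35.9 to 74.2 CPM, and B cell markers (0 and 4 of 4 higher) to 42.7 to 52.6, 27.5 to 50.9 and 103 to 387 CPM. All 4 B cell markers were called lower in IP than in IV, beside 4.47% of all genes. Melanoma and pigment cell markers, which define the tumour, summed to 24800 to 27600 CPM in PBS, 13100 to 14700 in IP and 17700 to 22900 in IV, with 5 of 6 lower in IP and 3 of 6 in IV. Adipocyte markers of the omentum (214 to 597 CPM over all libraries) were called in neither direction against PBS. Of the mesothelial markers (93.6 to 162 CPM) 1 of 5 was higher and 1 lower in IP and 0 were called in IV (edgeR; 0 also unadjusted, by DESeq2 and by voom). Of the endothelial markers (59.1 to 121 CPM) 2 of 4 were higher in IP and 0 in IV by edgeR, DESeq2, voom or unadjusted, and of the fibroblast markers (580 to 1160 CPM) 1 of 4 was higher in each. No marker outside the acinar list was at 0 in any library.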

How the data were processed

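RNA of 9 omenta was sequenced as pairs of 51-base reads from a directional poly(A) library (100 ng RNA), per the labels' protocols. Per the submitters' processing notes, which assign no roles, the build was mm39 and the tools included limma, featureCounts and STAR 2.7.9. How strand was counted is not stated there. The authors deposited whole-number counts of 55359 genes, used here, and log2 CPM of 18833 genes, which equal log2 of (count + 0.5) over the total and were an alternative. Symbols (52083 matched) and exon lengths came from GENCODE M21 on GRCm38, an older build.

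Counts were fitted with edgeR 4.0.16 in R 4.3.3 (filterByExpr, TMM, robust quasi-likelihood, all 9 libraries, no covariate), with Benjamini-Hochberg adjustment over 17123 genes at a threshold of 0.05. The SE is the absolute log2 fold change over the square root of F. Alternatives used DESeq2 1.42.0, limma 3.58.1 and left-out libraries. The fit was tested on simulated data. Precision depends on depth, which lay between 7379798 and 44626843 counts per library. In the main edgeR fit each gene has 1 estimate of the spread between mice, shared by all groups of 3. The edgeR p-values and SEs for IP against IV therefore also carry the spread between the PBS mice. The closest pair of libraries (IP 2 with IP 3) had a chi-square per degree of freedom of 7.67, and none was counted as a repeat. Named are all 9 genes, up to 5 partners of each list with the smallest p, 8 fixed partners, and the 5 genes nearest to 5 of the members. Of the genes this rule names, 1 is not reported here, and it stays in the fit and the counts. The members and lists were chosen with earlier results of these data known.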

Additional observations from a re-analysis of the deposited data

How the results depend on the processing

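All 9 genes passed in IP against PBS under the 17 alternatives. In IV against PBS the count was 7 to 9 with a library left out, and 6 with no filter on low counts, where Tap1 (2.13, edgeR adjusted p = 0.0698), Nlrc5 (2.02, adjusted p = 0.108) and Erap1 (1.29, adjusted p = 0.0582) were lost. In IP against IV it was 3 with only the 2 groups compared and 0 to 1 with a library left out. The mouse numbers, taken from the titles (some descriptions of IP and IV samples give another number), did not pair the libraries (same-number correlations of deviations from -0.399 to 0.1). With the replicate block, 0 members and 2 partners were higher in IP than in IV, where Rela (0.60, edgeR adjusted p = 0.0504), Susd6 (0.78, adjusted p = 0.0516) and Lap3 (0.47, adjusted p = 0.223) were not called, and Tap1 (-0.07), Tapbpl (-0.06), Nlrc5 (-0.28) and Erap1 (-0.01) changed sign there, as did Rfx5 in IP against PBS (-0.04). On the deposited log2 CPM, where the median of all genes was -0.141 (IP against PBS) and -0.109 (IP against IV), Calr was at -0.12 (IP) and -0.01 (IV) and Rfx5 at -0.03 (IP), 1 partner was higher in IP than in IV, and 3 (IP) and 1 (IV) were lower than in PBS. With no filter Calr was at -0.01 (IP) and 3 partners were higher in IP than in IV. Partners lower than in PBS numbered 1 by DESeq2 in IP and 1 in IV by DESeq2, its size factors and voom. With a library left out, partners higher ranged from 16 to 22 (IP), 9 to 13 (IV) and 1 to 7 (IP against IV), and partners lower from 0 to 3 in IV (3 without IV 4: Canx -0.46, Uggt1 -0.43 and Nfya -0.45) and 0 to 1 in IP against IV (Nfyc -0.40, without IV 4). Rfx5 in IV against PBS ranged from -0.25 (without IV 4) to 0.38. The cause of these changes was not tested. IV 2 had the fewest counts (7379798).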
